A study of Zea mays with 7 samples.

Results

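The gene-poor middle of maize chromosome 2, from 80 to 120 Mb, was followed through 7 libraries of small RNAs recovered by immunoprecipitation of AGO104. It was chosen by position alone, as all intervals of the deposited coverage between these bounds, and was cut into 400 windows of 0.1 Mb out of 2437 on the chromosome. The number of intervals that met it was 46241 and 78252 in the mm libraries, 180671 and 145670 in the Mm libraries, 1450961 in the ago104 library, and 227502 and 326374 in the B73 libraries. An interval is a run of bases covered by a constant number of aligned reads, its depth, and bases without a read are left out of the tables.

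By its main text, the study compared immature ears, with 2 libraries for each of 3 genotypes. A figure caption for the same sequencing names mature ears instead. mm plants were homozygous for the mop1-1 mutation (mop1-1/mop1-1) in a stock with the B' epiallele of b1, Mm plants were heterozygous (Mop1-1/mop1-1) in the same B' stock, and B73 is an inbred line with a neutral b allele. A single further library was labelled ago104, with neither allele nor zygosity given in the labels, and it entered no test. Every library carried the label AGO104-AGO105 for its antibodies, whereas the methods name an antibody against AGO104 alone. Stock and mop1 genotype differ together between B73 and the other 2 genotypes, so their parts cannot be told apart.

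In plants, RNA-directed DNA methylation starts when RNA polymerase IV makes transcripts of transposons and other repeats, which an RNA-dependent RNA polymerase, MOP1 in maize, turns into double strands. A Dicer enzyme cuts these into siRNAs, and an ARGONAUTE protein of the AGO4 clade carries them to matching loci, where DNA methylation follows. The middle of a maize chromosome holds the centromere and the regions beside it, which are rich in transposons and poor in genes.

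The RefSeq annotation of B73 version 5 placed 457 of the 5872 genes of chromosome 2 in the stretch. Protein-coding genes stood at 6.95 per Mb there and at 18.7 per Mb on the rest of the chromosome. The 278 protein-coding genes were joined by 94 lncRNA genes, 57 pseudogenes, 5 tRNA, 4 snoRNA and 1 snRNA gene, and by 0 annotated miRNA or rRNA genes. No sequence of the stretch was analysed here, so its windows are described by their position and annotation.

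Depth differed between the libraries before any scaling. The rises in depth along the stretch, each taken as the start of an alignment, summed to 136083 and 248264 in mm, 218344 and 200890 in Mm, 2998185 in ago104, and 411732 and 667718 in B73. Coverage was therefore scaled to a sum of 1000000 over the chromosome in each library, and scaled coverage below is in these units. Covered bases, which count a base once however deep it is, were not scaled where they are given as a share of the sequence.

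The stretch carried less coverage per base than the rest of the chromosome in every library. Per window, mean scaled coverage was 361 and 355 in mm against 420 and 421 on the rest of the chromosome, 348 and 351 in Mm against 423 and 422, and 364 and 373 in B73 against 419 and 418. The log2 ratio of the stretch over the rest averaged -0.23 ± 0.043 (SD, n = 6 libraries) and ran from -0.28 to -0.16. All 6 libraries were lower in the stretch (p = 0.03125, two-sided exact sign-flip permutation test, the smallest p that 6 libraries allow). In the ago104 library the ratio was -0.19.

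The difference was smaller against the neighbouring sequence. Against only the 40 Mb on each side, the log2 ratio was -0.087 ± 0.016 (SD, n = 6), again below 0 in 6 of 6 libraries (p = 0.03125, two-sided exact sign-flip permutation test). The flanks themselves differed. From 40 to 80 Mb alone the mean window had 304 and 301 units in mm, 365 and 355 in Mm, 350.5 in ago104, and 341 and 365 in B73, so the stretch lay above it in mm, ago104 and B73 and below it in Mm. From 120 to 160 Mb it had 457 and 447 units in mm, 385 and 401 in Mm, 398 in ago104, and 431 and 418 in B73, above the stretch in every library. The median window of the stretch had 184 and 172 units in mm, 297 and 276 in Mm, 275 in ago104, and 236 and 241 in B73. In the segment from 120 to 160 Mb the medians were nearly alike, at 181 and 177 units in mm, 295 and 271 in Mm, 274 in ago104, and 240 and 252 in B73. In the first 40 Mb of the chromosome they were higher, at 243.1 and 242.3 units in mm, 388 and 365 in Mm, 365 in ago104, and 322 and 323 in B73.

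Covered bases moved less than coverage. Reads covered 1.44 and 2.30% of the stretch in mm against 1.57 and 2.48% of the rest of the chromosome, 5.34 and 4.39% in Mm against 5.77 and 4.82%, and 6.48 and 8.68% in B73 against 6.93 and 9.15%. The log2 ratio averaged -0.11 ± 0.021 (SD, n = 6; p = 0.03125, two-sided exact sign-flip permutation test). Against the 40 Mb on each side it was -0.016 ± 0.0087, with 1 library at -0.00038. Here too the flanks differed, since covered bases per Mb were fewer in the stretch than from 40 to 80 Mb and more than from 120 to 160 Mb in all 6 libraries, with 14411 in the stretch, 15174 and 14114 in mm replicate 1. The deeper ago104 library covered 27.7% of the stretch and 28.2% of the rest, a log2 ratio of -0.023.

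The share of the chromosome's coverage that fell in the stretch hardly separated the genotypes. It was 14.4 and 14.2% in mm, 13.9 and 14.1% in Mm, 14.7% in ago104, and 14.6 and 14.9% in B73. The difference was 0.32 percentage points for mm against Mm, -0.43 for mm against B73 and -0.75 for Mm against B73, with no overlap between the libraries of each pair. Each pair gave p = 0.333 in a two-sided exact permutation test, the smallest that 2 against 2 libraries allow, and mm against the other 4 libraries gave p = 0.933. Without the 25 windows of highest mean coverage on the chromosome, of which 4 lie in the stretch, the mm share stood at 15.8% against 14.5% in Mm and 15.1% in B73, so that mm against B73 changed its sign.

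The share of covered bases was closer still. It was 15.2 and 15.4% in mm, 15.4 and 15.2% in Mm, 16.2% in ago104, and 15.5 and 15.7% in B73. Libraries of mm and Mm overlapped here, with a difference of 0.065 percentage points (p = 0.667, two-sided exact permutation test, 2 against 2). The differences of mm and of Mm from B73 were -0.27 and -0.34 percentage points, each with p = 0.333 in the same exact permutation test.

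What differed between genotypes was how the coverage was laid out within the stretch. In mm it lay on few bases at high depth, and in Mm on more bases at low depth. B73 lay between them in depth and covered the most bases of the 3 genotypes. A covered base of the stretch had a mean depth of 4.14 and 4.74 for mm, 1.89 and 2.10 for Mm, 5.06 for ago104, and 2.83 and 3.45 for B73. Intervals at a depth of 100 or more held 49.5 and 54.6% of the coverage of the stretch in mm, 15.1 and 23.9% in Mm, 42.0% in ago104, and 39.5 and 47.6% in B73. The mm libraries lay above the Mm libraries in both measures with no overlap. Both measures use depth before scaling, and the libraries were not equally deep. Library depth itself moves both measures, and its part was not tested. The rest of the chromosome had the same order, with 52.8 and 58.3% at a depth of 100 or more in mm, 17.6 and 25.2% in Mm, 40.6% in ago104, and 38.7 and 45.8% in B73.

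Along the stretch the libraries had their lowest medians in the same region. In steps of 2 Mb, the median window was lowest from 94 to 98 Mb. From 96 to 98 Mb it had 103 and 102 units in mm, 248 and 235 in Mm, 220 in ago104, and 175 and 169 in B73. From 110 to 112 Mb it had 256 and 273 units in mm, 394 and 353 in Mm, 344 in ago104, and 270 and 294 in B73. Both mm medians lay below both Mm medians in every step but that from 86 to 88 Mb, where an mm library (246 and 236 units) reached above the lower Mm library (279.8 and 244.3 units).

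**Figure D1:**
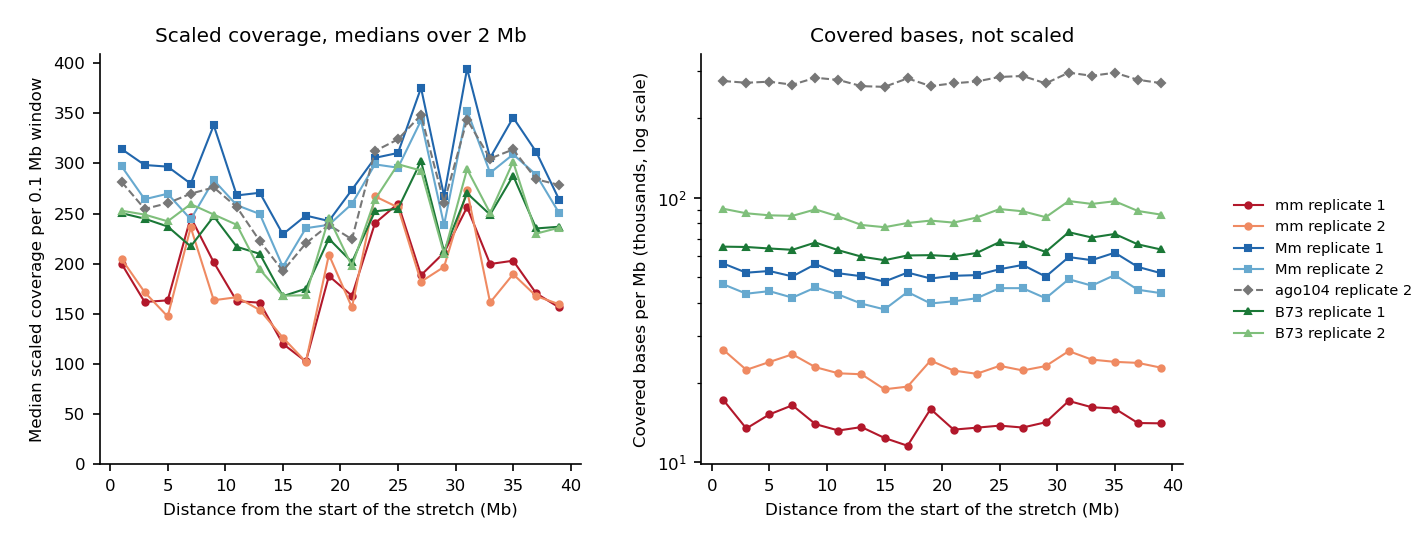
Median scaled coverage per 0.1 Mb window (left) and covered bases per Mb on a log axis (right), in steps of 2 Mb, against the distance from the start of the stretch, with 1 line for each library. The lowest medians lie at 14 to 18 Mb from the start, where the mm libraries fall to 103 and 102 units, and covered bases per Mb run from 11547 to 17200 along the stretch in mm replicate 1 and from 48188 to 61966 in Mm replicate 1.

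In scaled coverage, replicates agreed closely in mm and Mm and less in B73. Across the 400 windows, log2 scaled coverage correlated between replicates with Pearson's r of 0.981 in mm, 0.966 in Mm and 0.791 in B73. On covered bases the order was the other way, with r of 0.895 in mm, 0.932 in Mm and 0.953 in B73. These are descriptions across windows of the same libraries, which share their reads' depth and repeated loci, and windows are not replicates. In log2 scaled coverage, replicates of mm lay a median of 0.17 apart, those of Mm 0.16 and those of B73 0.24, with a largest gap of 2.95 in B73.

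Window by window, mm had less scaled coverage than Mm over most of the stretch. Of the 400 windows, 236 were lower and 16 were higher in mm at an adjusted p under 0.05 (limma over all 2435 windows with coverage, Benjamini-Hochberg). These 252 windows are 63.0% of the stretch, and 62.4% of all windows of the chromosome passed the same test. By direction, 59.0% of the stretch was lower, against 59.1% of all windows, and 4.00% was higher, against 3.24% of all. The stretch therefore had the chromosome's own share of calls. The median log2 difference was -0.55 over the stretch and -0.61 over all windows.

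The split of these calls moved with the scaling. When each library was scaled by its median ratio over windows, the median of all windows moved to 0.03. In the stretch 96 windows were then higher and 81 lower in mm than in Mm. Over all 2435 windows 516 were higher and 558 lower, and 44.1% were called, against 44.2% of the stretch. When each library was scaled to its sum outside the deepest 1% of windows, 28 of the stretch were higher and 186 lower. Over all windows these counts were 158 and 1177. With covered bases in place of coverage, scaled to one sum per library, 61 windows of the stretch were higher and 87 lower. These were 37.0% of the stretch, and 40.2% of all windows were called. Counted without a test, both mm libraries lay on one side of both Mm libraries in 358 of the 400 windows, or 89.5%, which was 89.6% over all windows.

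The call depended on how deep a window was. Among the 100 windows of lowest mean coverage, from 93.6 to 184 units, 95 were lower and 0 higher in mm than in Mm, with a median log2 difference of -0.83. Among the 100 windows of highest mean coverage, from 342 to 4634 units, 12 were lower and 14 higher, with a median of 0.44. The level and the difference come from the same libraries, so this is a description.

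**Figure D2:**
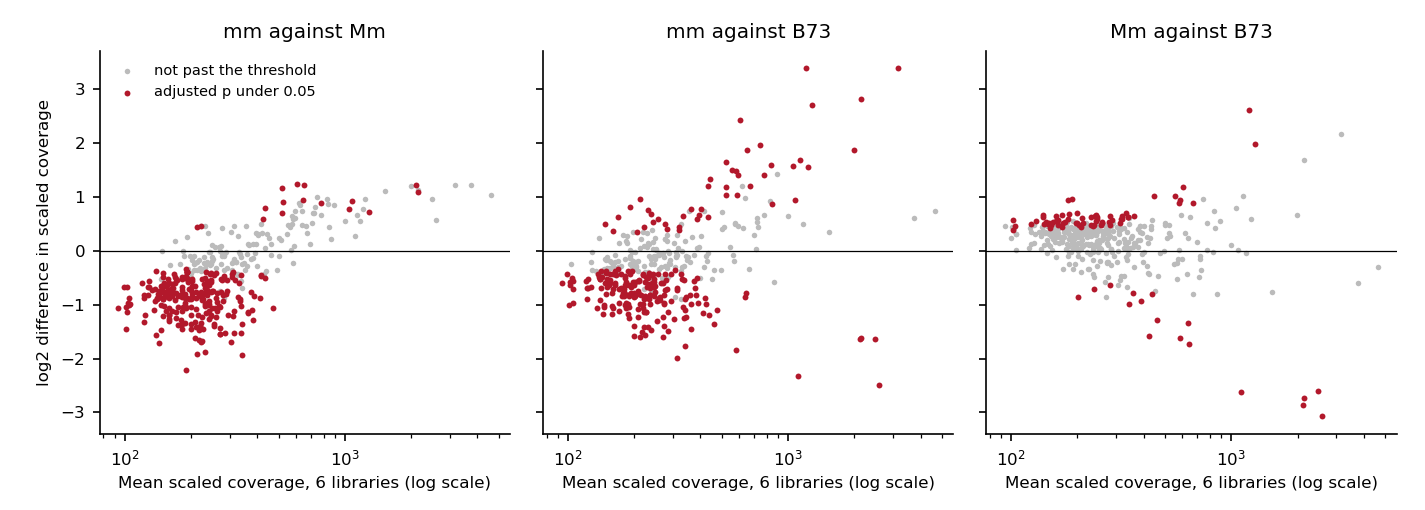
The log2 difference of scaled coverage in each of the 400 windows for mm against Mm, mm against B73 and Mm against B73, against the mean scaled coverage over 6 libraries on a log axis, with windows at adjusted p under 0.05 in red. The 236 windows lower in mm than in Mm lie mainly at low coverage, and the 16 higher ones mostly at high coverage.

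The 5 windows with the largest falls in mm against Mm had no single kb that accounted for the loss, since both mm libraries also lay below both Mm libraries in each of them once its deepest kb was left out. From 96.3 to 96.4 Mb, where no gene is annotated, scaled coverage was 75.1 and 65.5 in mm, 354 and 303 in Mm, 398 in ago104, and 171 and 165 in B73. The mm libraries were the lowest of all, at a log2 difference from Mm of -2.21 ± 0.13 (SE, adjusted p = 0.000141, limma). Covered bases in this window were 660 and 1109 in mm, 6872 and 5595 in Mm, and 6281 and 8356 in B73.

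From 105.3 to 105.4 Mb, which holds the protein-coding gene LOC100217008 and a lncRNA gene, scaled coverage was 128 and 114 in mm, 489 and 446 in Mm, 420 in ago104, and 547 and 316 in B73. The difference was -1.94 ± 0.24 (adjusted p = 0.000341, limma). From 116.5 to 116.6 Mb it was 84.4 and 77.7 in mm against 327 and 294 in Mm, a difference of -1.92 ± 0.13. The deepest interval there lies within LOC103646880, a protein-coding gene.

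The window from 100.0 to 100.1 Mb had 96.0 and 91.0 units in mm against 356 and 339 in Mm, a difference of -1.88 ± 0.13. That from 94.1 to 94.2 Mb had 72.4 and 59.5 units in mm against 232 and 201 in Mm, a difference of -1.70 ± 0.14. In this last window the deepest kb held 40.3 and 47.0% of the Mm coverage, and on covered bases its difference shrank to -0.14 and did not pass the test. The other 4 falls kept their direction and passed on covered bases, at -1.44, -0.95, -0.44 and -0.49 in the order given above.

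The 5 windows with the largest rises differed from the falls in form. In each of them a single kb held most of the mm coverage, and outside that kb no mm library exceeded the higher Mm library. From 102.7 to 102.8 Mb, where no gene is annotated, scaled coverage was 938.5 and 1322 in mm, 488 and 459 in Mm, 406 in ago104, and 183.7 and 232.5 in B73. The difference of mm from Mm was 1.23 ± 0.22 (SE, adjusted p = 0.00186, limma). One kb, from 102798001 to 102799000, held 90.6 and 93.1% of the coverage of this window in mm, 57.0 and 63.4% in Mm, and 5.92 and 37.4% in B73. Outside it the window had 88.3 and 91.7 units in mm against 210 and 168 in Mm.

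From 93.3 to 93.4 Mb, scaled coverage was 1068 and 1182 in mm, 363 and 630 in Mm, and 211 and 448 in B73, and mm differed from Mm by 1.23 ± 0.38 (adjusted p = 0.0235, limma). From 117.0 to 117.1 Mb it was 933 and 806 in mm, 367 and 405 in Mm, and 172 and 440 in B73, a difference of 1.17 ± 0.38. No gene is annotated in either window. A single kb held 90.4 and 93.5% of the mm coverage in the first window and 93.3 and 92.8% in the second.

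The windows from 81.4 to 81.5 Mb and from 99.4 to 99.5 Mb had nearly the same values in every library. The first had 1396 and 1303 units in mm, 510 and 660 in Mm, 1757 in ago104, and 5759 and 3059 in B73. The second had 1475 and 1260 units in mm, 562 and 720 in Mm, 1772 in ago104, and 5752 and 3081 in B73. Both were thus higher in mm than in Mm, by 1.22 ± 0.39 and 1.10 ± 0.39, and both were lower in Mm than in B73, by -2.85 ± 0.39 and -2.73 ± 0.39.

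These rises were less firm than the falls. On covered bases 3 of the 5 turned to the other sign, at -0.07 from 102.7 Mb, -0.02 from 81.4 Mb and -0.16 from 117.0 Mb. The calls at 81.4, 99.4 and 117.0 Mb were lost when any one of the Mm or mm libraries was left out, and that at 93.3 Mb when Mm replicate 1 or either mm library was. The 5 falls stayed past the threshold without any one library. The call at 99.4 Mb was also lost with a pseudocount of 100.

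**Figure D3:**
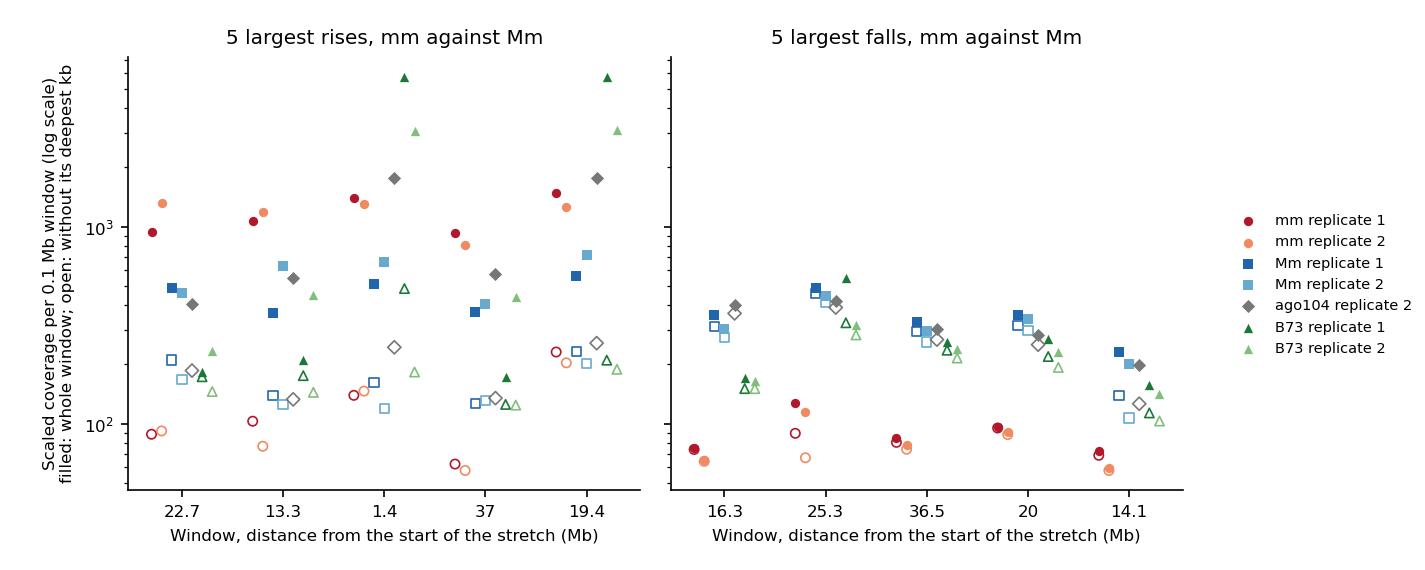
Scaled coverage of the 5 windows with the largest rises (left) and the 5 with the largest falls (right) in mm against Mm, in each of the 7 libraries on a log axis, named by their distance from the start of the stretch. Filled symbols are whole windows and open symbols the same windows without their deepest kb, which brings the mm libraries of the window at 22.7 Mb from the start to 88.3 and 91.7 units, below 210 and 168 units in Mm.

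The same form held over all windows called in mm against Mm. In the 16 windows higher in mm, the deepest kb held a median of 78.6 and 81.4% of the coverage in the mm libraries, 46.1 and 56.9% in Mm, and 11.6 and 49.8% in B73. In the 236 windows lower in mm, the medians were 14.3 and 13.2% in mm, 7.34 and 8.83% in Mm, and 7.43 and 10.1% in B73. More than 50% of the mm coverage lay in 1 kb in 13 of the 16 windows that were higher and in 1 of the 236 that were lower. It did so in 59 of the 148 windows not called and in 73 of all 400. The deepest kb was chosen by its mean over the same 6 libraries, so this is a description.

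Against B73, mm had 196 lower and 46 higher windows, or 60.5% of the stretch, where 63.2% of all windows were called (limma, adjusted p under 0.05). By direction, 49.0% of the stretch was lower, against 52.7% of all windows, and 11.5% higher, against 10.5% of all. The median log2 difference was -0.42 over the stretch and -0.47 over all windows. Leaving out mm replicate 1 lowered the count to 158 of the 400 windows, and on covered bases it was 145, with 47 higher and 98 lower. Under median-ratio scaling 92 windows were higher and 84 lower, against 555 and 580 of all 2435 windows. On covered bases 40.4% of all windows were called. The libraries of mm and B73 did not overlap in 80.5% of the stretch, against 82.8% of all windows.

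The largest rises in mm against B73 rested mainly on single kb loci that were far weaker in B73. From 103.4 to 103.5 Mb, a window that holds the protein-coding gene LOC103648820, scaled coverage was 2448 and 1855 in mm, 1112 and 1405 in Mm, 743 in ago104, and 162 and 255 in B73. The mm libraries were higher than B73 by 3.39 ± 0.30 and the Mm libraries by 2.62 ± 0.30 (SE, adjusted p = 0.000564 and 0.00757, limma). The kb that held 93.3 and 90.9% of the mm coverage lies 57823 bases from the nearest annotated gene. On covered bases the difference of mm from B73 turned to -0.43, which also passed the test.

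Also higher in mm than in B73 were the windows from 86.2 to 86.3 Mb and from 102.0 to 102.1 Mb, by 3.38 ± 0.84 and 2.82 ± 0.51 (adjusted p = 0.00909 and 0.00237, limma). The first had 6070 and 5884 units in mm, 2080 and 3141 in Mm, 4738 in ago104, and 205 and 1591 in B73. The second had 3991 and 3943 units in mm, 1526 and 2151 in Mm, 3935 in ago104, and 330 and 948 in B73. The B73 libraries of the first window were far apart, and its call was lost when either mm library was left out, at differences of 3.36 and 3.41. On covered bases the first window was at 0.44 and passed the test, and the second was at 0.045 and did not.

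The window from 110.8 to 110.9 Mb was among the 3 largest falls in mm against B73. It holds no annotated gene, and its scaled coverage was 1112 and 996 in mm, 574 and 868 in Mm, 1003 in ago104, and 6671 and 5264 in B73. All 5 libraries of the other genotypes lay far below both B73 libraries, with log2 differences of -2.49 ± 0.36 for mm and -3.07 ± 0.36 for Mm (adjusted p = 0.00107 and 0.00757, limma). Covered bases went the other way for mm against B73, at 0.49, which also passed the test, and stood at 0.023 for Mm against B73. From 104.6 to 104.7 Mb the 2 B73 libraries were themselves apart, with 404 and 319 units in mm against 4617 and 712 in B73, a difference of -2.33 ± 0.71 (adjusted p = 0.0216, limma). This call was lost without any one mm or Mm library, under median-ratio scaling, on covered bases and with only mm and B73 in the fit.

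From 112.1 to 112.2 Mb scaled coverage was 127.5 and 102.8 in mm, 362 and 304 in Mm, and 682 and 306 in B73, a difference of mm from B73 of -1.99 ± 0.33 (adjusted p = 0.00184, limma). The deepest interval of this window lies in the protein-coding gene LOC100192028. The kb around it held 10.9 and 9.48% of the coverage in mm, 2.15 and 2.48% in Mm, and 56.7 and 21.6% in B73.

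Between Mm and B73 fewer windows differed. In Mm, 65 windows were higher and 17 lower, or 20.5% of the stretch, against 19.7% of all windows called (limma, adjusted p under 0.05). The higher ones made up 16.2% of the stretch, against 15.4% of all windows, and the lower ones 4.25%, against 4.35%. The median log2 difference was 0.29 over the stretch and 0.27 over all windows. This count was unstable, since it fell to 0 windows without either Mm library and to 15 and 16 without an mm library, and reached 177 and 175 without a B73 library. At an unadjusted p under 0.05 the fits without an Mm library had 83 and 135 windows, and on covered bases 5 windows were called. Under median-ratio scaling the split turned, with 7 windows higher and 19 lower, against 58 and 118 of all 2435 windows. On covered bases 1.15% of all windows were called. Without a test, the libraries of Mm and B73 did not overlap in 67% of the stretch, against 68.8% of all windows.

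Besides the window from 103.4 Mb, Mm was higher than B73 from 93.6 to 93.7 Mb, with 1197 and 1467 units in Mm, 2479 and 1909 in mm, and 337 and 332 in B73, a difference of 1.98 ± 0.27 for Mm against B73 (adjusted p = 0.00757, limma). From 102.7 to 102.8 Mb the difference was 1.19 ± 0.22 (adjusted p = 0.0193, limma). Each of the 6 windows named for Mm against B73 lost its call when either Mm library was left out.

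The 5 windows of highest mean coverage were not equally deep in every library. From 98.2 to 98.3 Mb scaled coverage was 6242 and 6971 in mm, 2919 and 3557 in Mm, 3372 in ago104, and 3143 and 4971 in B73. This window, which holds the tRNA gene TRNAC-ACA, also had the most covered bases of the 400 in 5 of the 6 libraries of mm, Mm and B73, with 8800 and 11710 in mm, 12368 and 10650 in Mm, and 12420 and 16688 in B73. The next window, from 98.3 to 98.4 Mb, was among the 3 of lowest mean coverage, with 75.6 and 74.8 units in mm, 133 and 108 in Mm, 119 in ago104, and 108 and 97.3 in B73.

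From 86.5 to 86.6 Mb, where LOC103648772 is an annotated pseudogene, scaled coverage was 5084 and 5551 in mm, 2012 and 2591 in Mm, 2676 in ago104, and 2622 and 4613 in B73. From 109.3 to 109.4 Mb, with the protein-coding gene LOC100273159, it was 1652 and 1456 in mm, 700 and 909.5 in Mm, 1811 in ago104, and 6681 and 3502 in B73. With those from 86.2 and 110.8 Mb these made up the 5 deepest windows. The other two lightly covered windows adjoin each other, from 97.2 to 97.4 Mb, and the first of them had 47.0 and 57.8 units in mm, 140 and 148 in Mm, 147 in ago104, and 117 and 95.8 in B73.

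At finer grain, a small number of loci carried a large part of the coverage. The 40 deepest of the 40000 bins of 1 kb, ranked by their mean over 6 libraries, held 37.4 and 35.9% of the coverage of the stretch in mm, 12.3 and 18.9% in Mm, 22.1% in ago104, and 24.9 and 27.8% in B73. Outside these 40 bins the order of the genotypes was reversed, with 90366 and 90920 units in mm, 121995 and 114046 in Mm, 114653 in ago104, and 109466 and 107604 in B73. The scaled totals of the stretch were close, from 139146 units in Mm replicate 1 to 149097 in B73 replicate 2. More coverage inside these bins therefore leaves less outside, and the reversed order is not a separate result. In all 40 bins both mm libraries lay above both Mm libraries. The ranking used these same libraries, and the share of all bins with this order was not counted, so this is a description. The ratio of the mm mean to the Mm mean ran from 1.56 to 3.66, with a median of 2.46.

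The B73 libraries disagreed at these loci. B73 replicate 1 had less than 0.25 of the scaled coverage of replicate 2 in 24 of the 40 bins and more than replicate 2 in 6, and the ratio ran from 0.0346 to 9.57. In mm and Mm the ratio of replicate 1 to replicate 2 stayed between 0.602 and 2.02 and between 0.416 and 0.955. No test between genotypes was made on these bins, since they were chosen by their coverage in the same libraries.

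**Figure D4:**
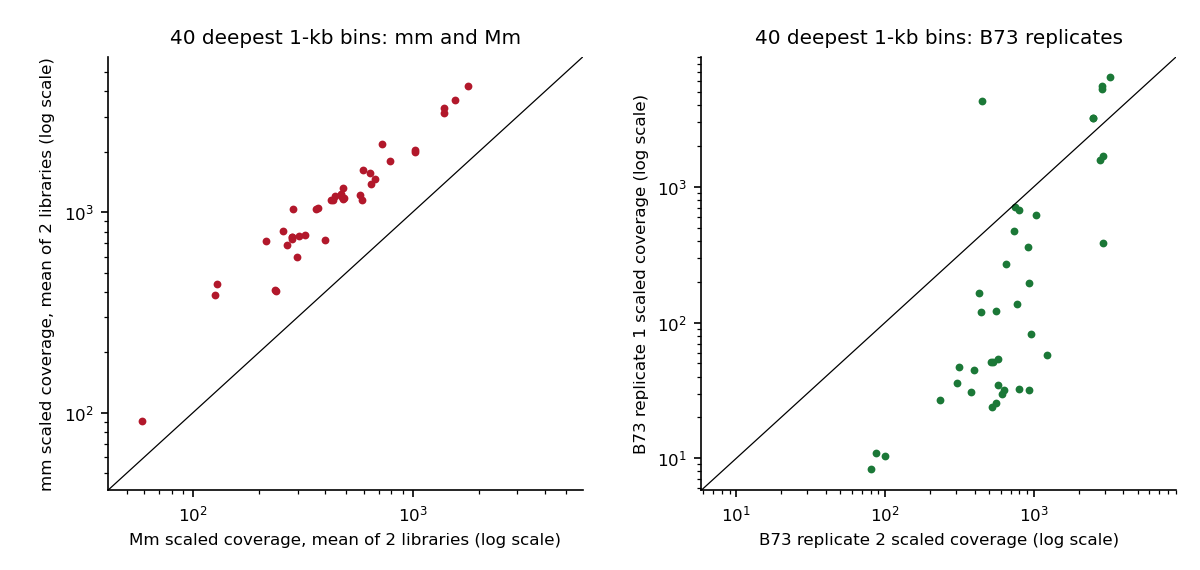
Scaled coverage of the 40 deepest 1-kb bins on log axes, as the mm mean against the Mm mean (left) and as B73 replicate 1 against B73 replicate 2 (right), with the line of equality. The bins were ranked by their mean over the same libraries. All 40 bins lie above the line in mm against Mm, and in B73 the replicates differ by up to 9.57-fold in one direction while 24 bins have less than 0.25 of the coverage of replicate 2 in replicate 1.

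Of the 40 bins, 37 had no annotated gene at their deepest base, and the median distance from that base to the nearest gene was 46509.5 bases. The other 3 met LOC103648828 and LOC111590849, which are protein-coding, and the pseudogene LOC103648874. Over the whole of LOC103648828 scaled coverage was 1936 and 1734 in mm, 709 and 934 in Mm, 1015 in ago104, and 248 and 957 in B73. LOC103648874 had 1695 and 1402 units in mm, 557 and 1070 in Mm, 1029.6 in ago104, and 155 and 787 in B73. Both genes lay higher in mm than in Mm with no overlap, and in B73 the replicates were widely apart.

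Several of the deepest bins had nearly the same values. The bins from 86514001 to 86515000 and from 98223001 to 98224000 had 2937 and 2824 units in mm replicate 1, 1168 and 1183 in Mm replicate 1, and 1683 and 1582 in B73 replicate 1. A set of 3, starting at 81400001, 99453001 and 109391001, had 1257, 1244 and 1354 units in mm replicate 1 and 5275, 5543 and 6464 in B73 replicate 1. Those starting at 86203001 and 102016001 had 4270 and 3703 units in mm replicate 1, and only 31.8 and 34.6 in B73 replicate 1. Within each of these sets the higher bin exceeded the lower by at most 25% in each of the 7 libraries.

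By that measure 17 of the 40 deepest bins had a partner somewhere on the chromosome and 11 had one within the stretch. Among the next 360 bins these counts were 111 and 42. According to the methods, the authors let Bowtie report up to 2 alignments for a read, so copies of one sequence can share reads, and whether these bins are such copies was not tested. The named windows from 81.4, 86.2, 86.5, 98.2, 99.4, 102.0, 109.3 and 110.8 Mb have such a partner within the stretch for their deepest kb.

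Outside these loci the coverage was thin and scattered. Of the bases in the stretch, 80.1% were covered in none of the 6 libraries of mm, Mm and B73, 14.6% in 1 of them and 0.132% in all 6. Of the bases that mm replicate 1 covered, 31.4% were covered in mm replicate 2, 30.2 and 27.4% in the Mm libraries, 66.9% in the deeper ago104 library, and 29.3 and 38.4% in the B73 libraries. The longest run without a read was 19481 bases in mm replicate 1, 18486 in mm replicate 2, 7740 and 13911 in Mm, 1863 in ago104, and 11357 and 5559 in B73.

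The length of isolated intervals also separated mm from the other genotypes. An isolated interval touches no other, and each was weighted by its depth. These are lengths of covered runs in the tables. How they relate to the lengths of the sequenced reads was not tested, so they are not given here as siRNA sizes. Those of 19 bases made up 13.7 and 10.9% of isolated intervals of 16 to 21 bases in mm, 41.1 and 41.2% in Mm, 40.6% in ago104, and 40.4 and 39.4% in B73. The exact Clopper-Pearson intervals at 95%, which cover counting error only, ran from 13.3 to 14.1% and from 10.6 to 11.2% in mm, and from 40.8 to 41.4% and from 40.9 to 41.6% in Mm.

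Shorter lengths took the larger share in mm. Isolated intervals of 17 bases made up 32.6 and 34.2% in mm, 14.4 and 14.4% in Mm, 14.2% in ago104, and 16.4 and 17.1% in B73. Those of 16 bases made up 29.4 and 31.6% in mm, 12.3 and 12.6% in Mm, 12.4% in ago104, and 13.8 and 15.1% in B73. At 18 bases the genotypes were closer, with 17.9 and 17.5% in mm, 22.1 and 20.1% in Mm, 18.97% in ago104, and 22.95 and 21.66% in B73. At 20 bases the shares were 4.84 and 4.20% in mm, 9.43 and 10.8% in Mm, 13.0% in ago104, and 5.92 and 6.05% in B73.

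The difference of mm from Mm was -28.8 percentage points at 19 bases and 19.04 at 17 bases. Both mm libraries lay outside the range of the other 4 at both lengths, with p = 0.133 for mm against the other 4 libraries, the smallest that this two-sided exact permutation test allows, and p = 0.333 for mm against Mm. The values were nearly the same with each interval counted once, at -28.5 and 20.1 percentage points, and over the stretch without its outer 5 Mb on each side, at -29.2 and 19.1.

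Between the stretch and the rest of the chromosome, the 19-base and 17-base shares did not differ beyond the spread between libraries. At 19 bases, the share in the stretch less that in the rest was -0.75 and -0.083 percentage points in mm, 0.33 and 0.45 in Mm, 0.70 in ago104, and 0.30 and 0.16 in B73. The mean over 6 libraries was 0.066 ± 0.44 points (SD, n = 6; p = 0.75, two-sided exact sign-flip permutation test). At 17 bases the libraries went both ways, at -0.15 and 0.24 points in mm, -0.67 and -0.42 in Mm, -0.56 in ago104, and 0.50 and 0.42 in B73, with a mean of -0.014 ± 0.48 points (p = 0.938, same exact permutation test). At 21 bases, where no test was made, the share was lower in the stretch than on the whole rest in every library. It was 1.51 and 1.61% in mm against 1.79 and 1.99% on the rest, 0.70 and 0.90% in Mm against 0.76 and 0.94%, 0.91% in ago104 against 0.97%, and 0.50 and 0.69% in B73 against 0.59 and 0.79%. Set beside the 40 Mb flanks, the genotype means went both ways. They were 1.56% in the stretch and 1.66% in the flanks in mm, 0.80 and 0.77% in Mm, and 0.60 and 0.62% in B73. Against only the 40 Mb on each side, all 6 libraries had a slightly higher 19-base share in the stretch, by 0.23 ± 0.15 points (p = 0.03125, same exact permutation test). The 17-base share differed from these flanks by -0.54 ± 0.55 points, with libraries from -1.02 to 0.15 (p = 0.125, same exact permutation test).

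**Figure D5:**
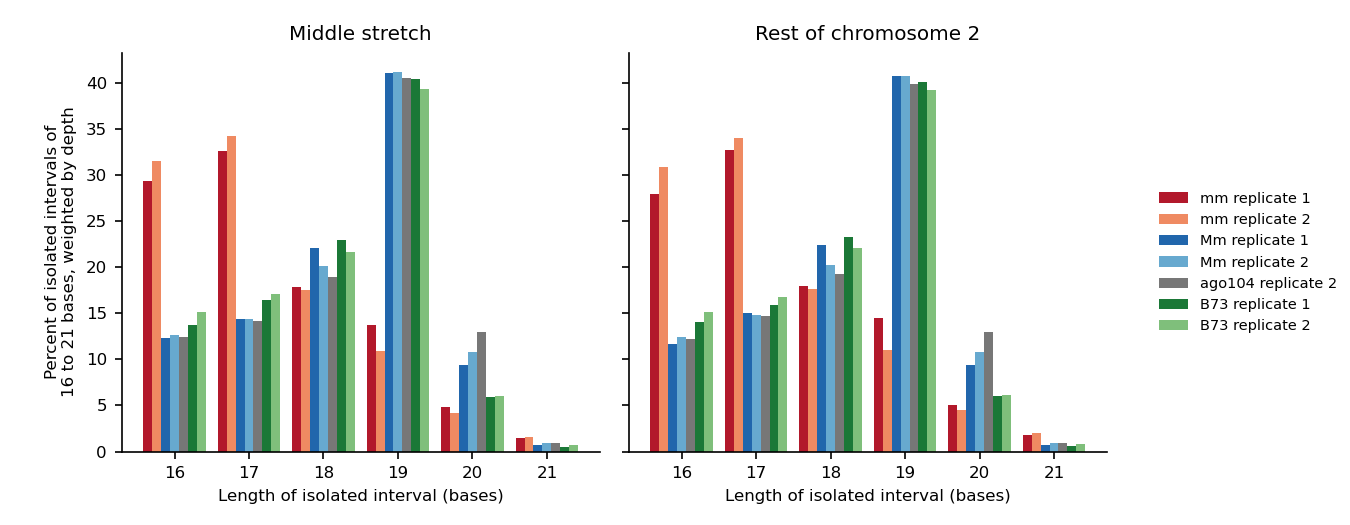
Percent of isolated intervals of 16 to 21 bases at each length, weighted by depth, in each of the 7 libraries, for the middle stretch (left) and the rest of the chromosome (right). At 19 bases the mm bars stand at 13.7 and 10.9% in the stretch and all other libraries near 40%, from 39.4 to 41.2%.

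Coverage near genes also differed between mm and the other genotypes. Sequence within 2 kb of a protein-coding gene is 2.52% of the stretch, and it held 2.74 and 2.92% of the coverage of the stretch in mm, 5.81 and 5.28% in Mm, 4.90% in ago104, and 4.21 and 3.91% in B73. The flank share was thus near the share of sequence in mm and above it in the other libraries. On the rest of the chromosome, where flanks are 5.96% of the sequence, they held 11.03 and 10.92% of the coverage in mm, 14.5 and 14.6% in Mm, 14.2% in ago104, and 12.2 and 12.6% in B73. Gene bodies, which are 4.83% of the stretch, held 8.40 and 8.56% of its coverage in mm, 8.62 and 8.51% in Mm, 8.68% in ago104, and 8.69 and 7.82% in B73.

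By covered bases, flanks were 1.88 and 1.73 times as densely covered as sequence away from genes in mm, 2.29 and 2.42 times in Mm, 1.58 times in ago104, and 2.22 and 2.11 times in B73. The rest of the chromosome had like ratios, at 1.78 and 1.65 in mm, 2.34 and 2.42 in Mm, 1.64 in ago104, and 2.28 and 2.23 in B73. Gene bodies went the other way by covered bases, with both mm libraries highest. In the stretch their ratios were 2.25 and 2.26 in mm, 1.78 and 1.84 in Mm, 1.5 in ago104, and 1.73 and 1.77 in B73. On the rest of the chromosome they were alike, at 2.18 and 2.22 in mm, 1.75 and 1.76 in Mm, 1.5 in ago104, and 1.73 and 1.79 in B73. The libraries covered unlike shares of the sequence, and how far that moves the ratios of flanks and gene bodies was not tested. Windows with a protein-coding gene, 206 of the 400, had a median of 198 and 187 units in mm, 332 and 300 in Mm, 300.2 in ago104, and 256 and 257 in B73. The 194 windows without one had 169 and 159 units in mm, 256 and 237 in Mm, 233 in ago104, and 206 and 214 in B73. The median log2 difference of mm from Mm was -0.56 with a gene and -0.54 without.

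The annotated small RNA genes of the stretch carried little of its coverage. The 5 tRNA genes, which encode adaptors of translation, summed to 94.6 and 125 units in mm, 60.6 and 67.8 in Mm, 45.3 in ago104, and 54.8 and 35.3 in B73. The 4 snoRNA genes, whose products guide the modification of other RNAs, summed to 88.3 and 88.4 units in mm, 25.5 and 42.9 in Mm, 30.0 in ago104, and 4.82 and 35.1 in B73. Both classes had their 2 highest sums in the mm libraries. The snRNA gene did not. It had 12.6 and 9.75 units in mm, 2.28 and 13.4 in Mm, 5.73 in ago104, and 18.8 and 9.86 in B73. Within the tRNA class, TRNAW-CCA was highest in B73 replicate 1, at 23.3 units against 8.17 and 6.14 in mm. Near-identical tRNA genes, such as the pair named TRNAV-AAC, can share reads and are uncertain one by one. The snoRNA sum came mainly from LOC111591077, with 55.1 and 61.2 units in mm, 19.4 and 29.2 in Mm, 21.6 in ago104, and 3.79 and 28.5 in B73.

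At both bounds of the stretch, scaled coverage differed between the windows inside and outside. The first window, from 80.0 Mb, had 138 and 132 units in mm, 273 and 232 in Mm, 205 in ago104, and 230 and 192 in B73, and its neighbour outside, from 79.9 Mb, had 180 and 204 in mm, 182 and 173 in Mm, 179 in ago104, and 118 and 89.6 in B73. The last window, from 119.9 Mb, had 105 and 132 units in mm, 232 and 193 in Mm, 186 in ago104, and 164 and 154 in B73. Its neighbour, from 120 Mb, had 196 and 222 in mm, 321 and 305 in Mm, 298 in ago104, and 262 and 269 in B73.

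The ago104 library was not tested, since its group has 1 library. Across the 400 windows its log2 scaled coverage correlated with Mm replicate 2 at r = 0.948 and with Mm replicate 1 at 0.915, with the mm libraries at 0.874 and 0.854, and with B73 replicate 2 and replicate 1 at 0.872 and 0.693, a description over windows. Its values lay above both B73 libraries in 233 windows and below both in 52, with the rest between them. These counts were made for the stretch alone, so they cannot be read as particular to it.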

How the data were processed

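Per the methods, reads passed Trimmomatic and were then placed on B73 version 5 by Bowtie 1.2.2 with at most 2 reported alignments. The authors deposited the coverage of chromosome 2 as the depth of each covered interval, not scaled. Which alignment the tables hold is not given in the sources used here. A read placed at several loci counts at each. Tables named by antibody and length class were not used.

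Coverage was summed in windows, scaled to 1000000 per library and tested as log2(value + 1) with limma 3.58.1 in R 4.3.3, the 3 genotypes in one model with a trend, which was tested on simulated data. Differences on this scale understate changes of low windows. Single values were compared with exact permutation tests (Python 3.11.15, scipy 1.17.1). p-values measure the spread between libraries, called biological replicates in the methods. Positions follow the tables. RefSeq genes were moved by 7855 bases, the shift at which 135 tRNA genes best met the coverage (score 0.533, 0.0586 at the next best), so gene positions rest on that match. Strand was not used.

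Named windows were the 5 largest rises and falls of mm against Mm and the 3 of each other comparison, past the threshold with no overlap between libraries, the 5 deepest, the 3 lowest and the bounds. Members and lists were chosen with earlier results of these data known. The deepest bins, their partners and the shared bases were chosen after the data were seen. Alternatives changed the pseudocount, filter, scaling, window size, trend, block, bounds and libraries.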

Additional observations from a re-analysis of the deposited data

Results flagged for a closer look

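In 5 named windows the ago104 library, which entered no comparison, had more than 2 times the scaled coverage of the higher B73 library, with no replicate to check it. From 86.2 to 86.3 Mb it had 4738 units, against 205 and 1591 in B73. From 93.6 to 93.7 Mb it had 845 units, against 337 and 332 in B73. From 96.3 to 96.4 Mb it had 398 units, against 171 and 165 in B73. From 102.0 to 102.1 Mb it had 3935 units, against 330 and 948 in B73. From 103.4 to 103.5 Mb it had 743 units, against 162 and 255 in B73. Over the stretch 6 of the 400 windows were that far above B73, and 6 of 2035 on the rest of the chromosome, while 4 of the 400 lay below the lower B73 library by more than 2 times.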

How the results depend on the processing

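For mm against Mm and mm against B73, the windows called in the stretch kept within 1.5 times of their share in most fits. For Mm against B73 they left that range in most fits. On covered bases 37.0, 36.2 and 1.2% of the stretch was called for mm against Mm, mm against B73 and Mm against B73. Over all windows these shares were 40.2, 40.4 and 1.15%. Covered bases with median-ratio scaling were chosen after the data were seen. They gave 35, 33 and 1.5% of the stretch, against 39.0, 35.6 and 1.19% of all windows. For Mm against B73, median-ratio scaling gave 6.5% of the stretch, against 7.2% of all windows. A fit without the trend gave 11%, against 12.5% of all. A fit of the 2 genotypes alone gave 3.25%, against 3.0% of all. Without single libraries the share ran from 43 to 82% for mm against Mm, from 39.5 to 75% for mm against B73, and from 0 to 44.2% for Mm against B73. The lone library of a genotype is then assumed to vary like the others.

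With the replicate number as a block, 63.2, 61.2 and 23.8% of the stretch was called, against 62.5, 63.6 and 23.1% of all windows. The numbers were not taken as pairing the samples: same-numbered libraries deviated together at r = 0.011 for mm and Mm, 0.0032 for mm and B73 and 0.444 for Mm and B73. The block ended the call of 1 of 22 named windows, at 99.4 Mb.

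The coverage share of mm against B73 became 0.20 percentage points without the outer 5 Mb on each side and 0.62 without the deepest 1% of windows. Without single libraries it ran from -0.60 to -0.26. The covered base share of mm against Mm became -0.0072 without the deepest 1% of windows and ran from -0.036 to 0.17 without single libraries. The 17-base share of the stretch against the rest became 0.17 points with each interval counted once and -0.54 against the 40 Mb on each side. Its mean against the rest ran from -0.12 to 0.12 without single libraries. The 19-base share became 0.23 points against the 40 Mb on each side and ran from -0.011 to 0.23. Without single libraries, coverage per base of the stretch against the rest ran from -0.24 to -0.22 and covered bases from -0.12 to -0.10, at an exact sign-flip permutation p of 0.0625, the smallest that 5 libraries allow.

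Among the named windows, covered bases turned the sign of mm against Mm at 81.4 (-0.024), 102.7 (-0.070) and 117.0 Mb (-0.16), of mm against B73 at 103.4 (-0.43) and 110.8 Mb (0.49), and of Mm against B73 at 93.6 (-0.16), 102.7 (-0.10) and 110.8 Mb (0.023). With median-ratio scaling of covered bases these were -0.023 and -0.11 for mm against Mm at 102.7 and 117.0 Mb, -0.36 and 0.56 for mm against B73 at 103.4 and 110.8 Mb, and -0.15, -0.089 and 0.038 for Mm against B73 at 93.6, 102.7 and 110.8 Mb. The cause was not tested. No other alternative turned a named window.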
